A study of Homo sapiens with 6 samples.

Results

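The genes described here encode the chaperones of the cytosol and the mitochondria, with their partner J-proteins, BAG proteins and heat shock factor 1. They were chosen by name: protein-coding genes whose GENCODE 29 symbol follows the HSPA, HSPB, DNAJA, DNAJB, DNAJC, CCT or BAG1 to BAG6 patterns, plus HSPH1, HSP90AA1, HSP90AB1, HSPD1, HSPE1, TCP1 and HSF1. HSPA5, HSPA13, DNAJB9, DNAJB11, DNAJC3 and DNAJC10, which act in the endoplasmic reticulum, were left out. The choice gave 80 gene identifiers, with 79 symbols because HSPA14 has 2 identifiers, of 58735 in the count files. RNA-seq libraries came from A549, a human non-small cell lung cancer line labelled wild type and grown in DMEM with fetal bovine serum and antibiotics. There were 3 libraries of untreated cells (control) and 3 of cells given 2 µM B35, an inhibitor of the histone demethylase LSD1, with both groups labelled 72 h. No solvent is named for the untreated cells. Whether replicate libraries stem from separate cultures is not stated, so p-values reflect the spread among these libraries alone, which may be technical.

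Molecular chaperones bind unfolded proteins and help them reach or keep their native shape. HSP70 binds short exposed segments and is driven through its ATP cycle by J-proteins and by nucleotide exchange factors such as HSP110 and the BAG proteins, while HSP90 acts later on clients such as kinases and steroid receptors. The chaperonins are barrels that enclose a folding protein: the TRiC/CCT double ring in the cytosol, known for folding actin and tubulin, and HSP60 with its lid HSP10 in the mitochondrial matrix. Small heat shock proteins hold aggregation-prone proteins without ATP, and heat shock factor 1 (HSF1) is the transcription factor that raises many of these genes after heat or protein damage.

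The libraries held between 17141478 and 18530670 counts assigned to genes. KDM1A, which encodes LSD1, averaged 198 ± 2.56 CPM (a gene's counts relative to the library total after TMM scaling; SD, n = 3) in control and 184 ± 8.97 in B35 libraries, with an adjusted p of 0.432; an inhibitor of the enzyme need not change its transcript, so this does not check the labels. The epithelial keratins were abundant: KRT18 lay between 430 and 550 CPM, and KRT8 at 1693, 1672 and 1624 CPM in control and 939, 1242 and 1170 in B35 libraries (adjusted p = 0.00611), while EPCAM was higher after B35 (3.40, 3.60 and 3.09 against 7.40, 7.22 and 7.01 CPM, adjusted p = 0.00248) and CDH1 stayed at or below 1.55 CPM and the lung markers NKX2-1, SFTPC and SFTPB had at most 9 counts in any library. PTPRC, ALB and HBB, which mark leukocytes, liver and red cells, had at most 1 count. PECAM1 and COL1A1 had also been listed as markers that should be absent. PECAM1 had 2 to 11 counts. COL1A1 was present, with 25.4, 24.1 and 25.5 CPM in control and 18.9, 19.8 and 20.9 in B35 libraries (adjusted p = 0.0596). The part of the KRT8 and EPCAM differences in the results below was not tested.

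Transcripts of the main folding machines were lower after B35, in the cytosol and in the mitochondria. Of the 80 genes, 71 had enough counts to be tested by edgeR's quasi-likelihood test, and 24 of them (33.8%) fell at a Benjamini-Hochberg adjusted p under 0.05 over all 14773 genes tested, against 6.59% of all genes. DNAJC22 was the single gene that rose (1.41%, against 8.82% of all genes), and 46 did not pass. The 24 falls were between 1.21-fold and 2.17-fold. The median log2 fold change (B35 minus control) was −0.17 over the chaperone genes and 0.0067 over all genes tested. In 32 chaperone genes every B35 library lay below every control library, an order seen in 17.5% of all genes, and in 4 every B35 library lay above, as in 18.8% of all genes. Leaving out a control library reduced the number of passing chaperone genes from 25 to 12 (without replicate 1), 19 (without replicate 2) or 10 (without replicate 3). Without B35 replicate 1, 24 fell and 3 rose (DNAJC22, DNAJB2 and DNAJC4). Without B35 replicate 2 or 3, 21 fell and none rose. None of the 25 changed sign in any of these runs, and 10 of the 25 passed whichever library of the 6 was left out. In log CPM, B35 replicate 1 correlated at 0.984 and 0.983 with B35 replicates 2 and 3, which correlated at 0.99 with each other.

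Most of the falls were among transcripts with many counts, and falls were also more frequent at that level over the whole table. Of the 27 chaperone genes with a control mean of at least 100 CPM, 18 fell and none rose (66.7% lower), while 17.6% of the 2416 genes at that level in the whole table fell. Of the 44 chaperone genes below it, 6 fell and 1 rose, while 4.43% of the 12357 genes below it in the whole table fell. The bound of 100 CPM was chosen after these values were known. All chaperone transcripts made up 12339, 11582 and 11981 CPM of the control libraries. They made up 9262, 9526 and 9134 CPM after B35, a difference of −22.2% between the group means. The sums use library sizes adjusted by TMM, edgeR's scaling factor. As plain shares of the counts they were 1.21, 1.14 and 1.18% in control and 0.952, 0.953 and 0.935% in B35 libraries. Fewer cells of a kind and less RNA per cell cannot be told apart in bulk samples.

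**Figure D1:**
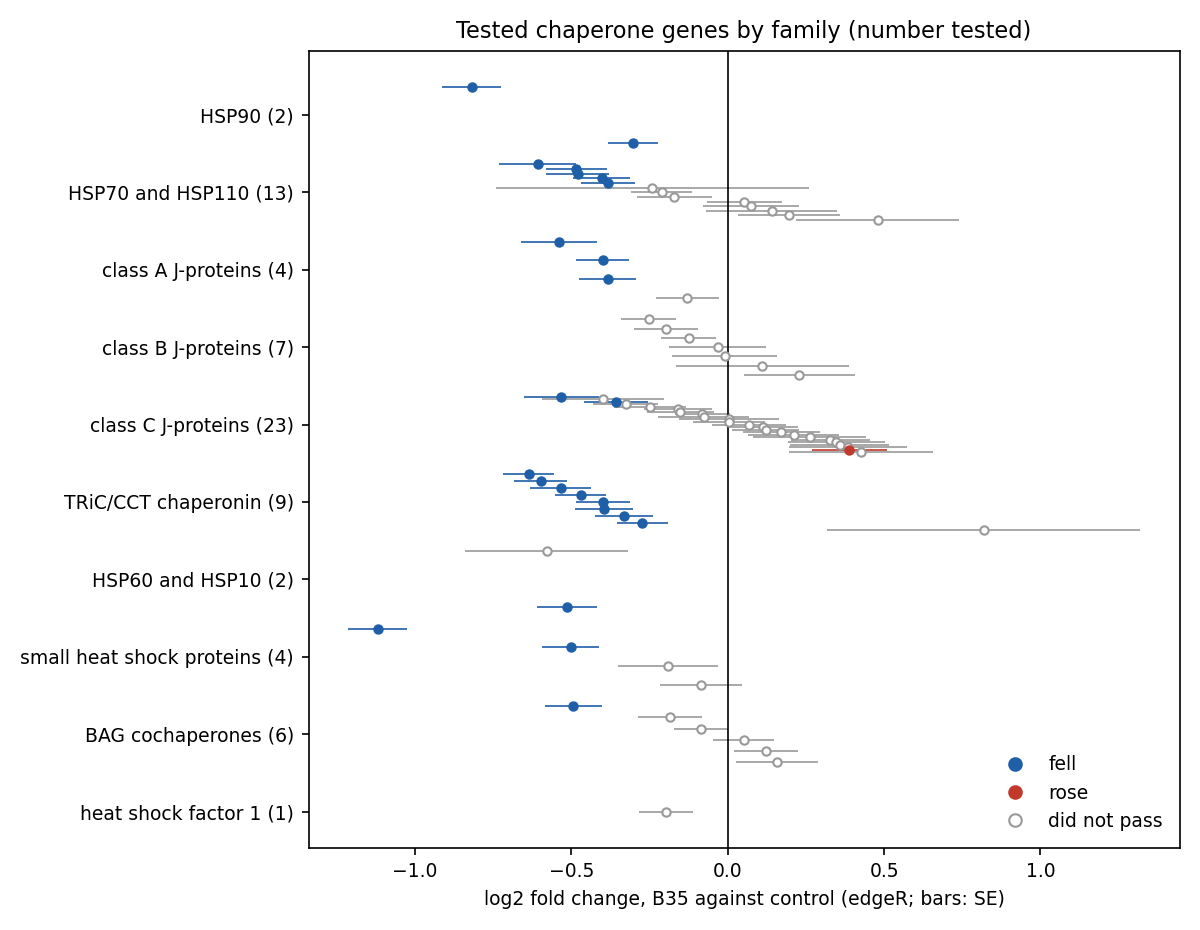
Log2 fold change (B35 against control, edgeR estimate, with its standard error as a bar) of each tested chaperone gene, arranged by family with the number tested. Both HSP90 genes and 8 of the 9 TRiC/CCT genes fell, against 6.59% of all genes and 17.6% of those with a control mean of at least 100 CPM. The 7 class B J-proteins did not pass, where 15.4% of all genes passed in either direction. The class C J-proteins lie on both sides of 0.

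HSP90 has 2 cytosolic forms, the stress-inducible alpha form and the constitutive beta form, and both transcripts fell. HSP90AA1 (ENSG00000080824, hg38 chromosome 14, 102080738 to 102139699, minus strand) had 858, 706 and 805 CPM in control and 464, 440 and 439 in B35 libraries. The groups were far apart, and the fall was 1.76-fold (log2 fold change −0.82 ± 0.095 SE, adjusted p = 0.000589). Its call held without any 1 library, although some of its exons overlap those of WDR20, where reads cannot be assigned with certainty. HSP90AB1 (hg38 chromosome 6, 44246166 to 44253888, plus strand) was the most abundant chaperone transcript per length (556 FPKM, fragments scaled by exon length and library total, in control), with 1654, 1655 and 1686 CPM in control and 1388, 1374 and 1288 in B35 libraries. It fell 1.23-fold (−0.30 ± 0.081, adjusted p = 0.0297). That call was lost without control replicate 1, 2 or 3 (adjusted p = 0.0856, 0.0945 and 0.149) and without B35 replicate 3 (0.0785). The log2 ratio of the alpha to the beta form went from −1.08 ± 0.142 (SD, n = 3) to −1.59 ± 0.046, with no overlap between the groups. An exact two-sided permutation test gave p = 0.1, the smallest that 3 against 3 allows; it was 1 of 4 gene pairs compared, all chosen after their values were seen.

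The HSP70 family supplies the general chaperones of the cell. Of its 13 tested identifiers, HSP110 included, 5 fell, against 6.59% of all genes and 17.6% of those with a control mean of at least 100 CPM. The family median log2 fold change was −0.21. HSPA8, the constitutive cytosolic HSC70 (hg38 chromosome 11, 123057489 to 123063230, minus strand), had 815, 775 and 841 CPM in control and 657, 585 and 623 in B35 libraries. All B35 libraries were lower, by 1.30-fold on average (−0.38 ± 0.086, adjusted p = 0.0142). HSPA9, the mitochondrial HSP70 (mortalin) that pulls imported proteins into the matrix, went from 741, 677 and 715 CPM to 554, 569 and 491 (1.32-fold lower, adjusted p = 0.0142). The HSP110 proteins are nucleotide exchange factors for HSP70. HSPA4 had 263, 225 and 247 CPM in control and 189, 173 and 164 in B35 libraries (1.40-fold lower, adjusted p = 0.00839). HSPH1 went from 178, 149 and 161 to 126, 109 and 115 CPM (1.40-fold lower, adjusted p = 0.0102). These 4 calls leaned on the control libraries: without replicate 1 the adjusted p was 0.0552 for HSPA8, 0.0659 for HSPA9 and 0.053 for HSPH1. Without control replicate 3 it was 0.0979, 0.0812, 0.0527 and 0.0533 for HSPA8, HSPA9, HSPA4 and HSPH1.

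HSPA14, an HSP70 relative that sits at the ribosome, is listed under 2 identifiers that share exon positions, so reads cannot be divided between them with certainty. ENSG00000187522 had 23.0, 19.2 and 19.6 CPM in control and 13.7, 12.9 and 13.9 in B35 libraries (1.52-fold lower, adjusted p = 0.0087), a call that held without any 1 library. The other identifier, ENSG00000284024, had 37.4, 40.4 and 40.4 CPM in control and 35.8, 32.5 and 33.8 in B35 libraries, with an adjusted p of 0.171.

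The classic heat-inducible HSP70 genes did not pass. HSPA1A had 24.5, 34.4 and 27.6 CPM in control and 24.9, 32.1 and 34.1 in B35 libraries, groups that overlap fully (0.08 ± 0.15, adjusted p = 0.791). HSPA1B had 15.9, 14.9 and 15.6 CPM in control and 13.5, 17.9 and 21.8 in B35 libraries (0.20 ± 0.16, adjusted p = 0.458). The 2 genes encode nearly identical transcripts and share reads, so their counts were also summed. The sum was 44.3 ± 4.58 CPM (SD, n = 3) in control and 48.1 ± 8.90 in B35 libraries, with a log2 fold change of 0.12 ± 0.14 and an adjusted p of 0.617 that ranged from 0.101 to 1 over the alternative settings. The log2 ratio of HSPA8 to this sum was 4.2 ± 0.195 in control and 3.71 ± 0.338 in B35 libraries (SD, n = 3; exact two-sided permutation test, p = 0.2). HSPA6, which is nearly silent without stress, had 0, 2 and 0 counts in control and 4, 0 and 7 in B35 libraries and was not tested. HSPA4L, HSPA1L, HSPA2, HSPA12A and HSPA12B did not pass either.

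HSF1 itself (hg38 chromosome 8, 144291591 to 144314722, plus strand) had 101, 96.7 and 96.8 CPM in control and 82.1, 89.4 and 85.0 in B35 libraries. The groups did not overlap, but the difference (−0.20 ± 0.087) had an adjusted p of 0.15. A list of 15 genes known to be raised by HSF1 after heat had 14 tested members, with a median log2 fold change of −0.24. Of these, 6 fell (HSP90AA1, HSP90AB1, HSPA8, HSPH1, HSPD1 and DNAJA1) and none rose. HSP90AB1 and HSPA8 are the forms called constitutive above, and the list was chosen with earlier results of these data known. Over all genes 6.59% were lower, and 17.6% of those with a control mean of at least 100 CPM, where these 6 lie. The count of 6 became 2 with either control replicate 1 or control replicate 3 left out. The 8 that did not pass were HSPA1A, HSPA1B, HSPA4L, HSPB1, HSPE1, DNAJB1, DNAJB4 and BAG3. DNAJB1, the J-protein most typical of the heat response, had 110, 113 and 117 CPM in control and 97.1, 109 and 105 in B35 libraries (−0.12 ± 0.089, adjusted p = 0.374). Its exons overlap those of MIR639 and TECR.

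**Figure D2:**
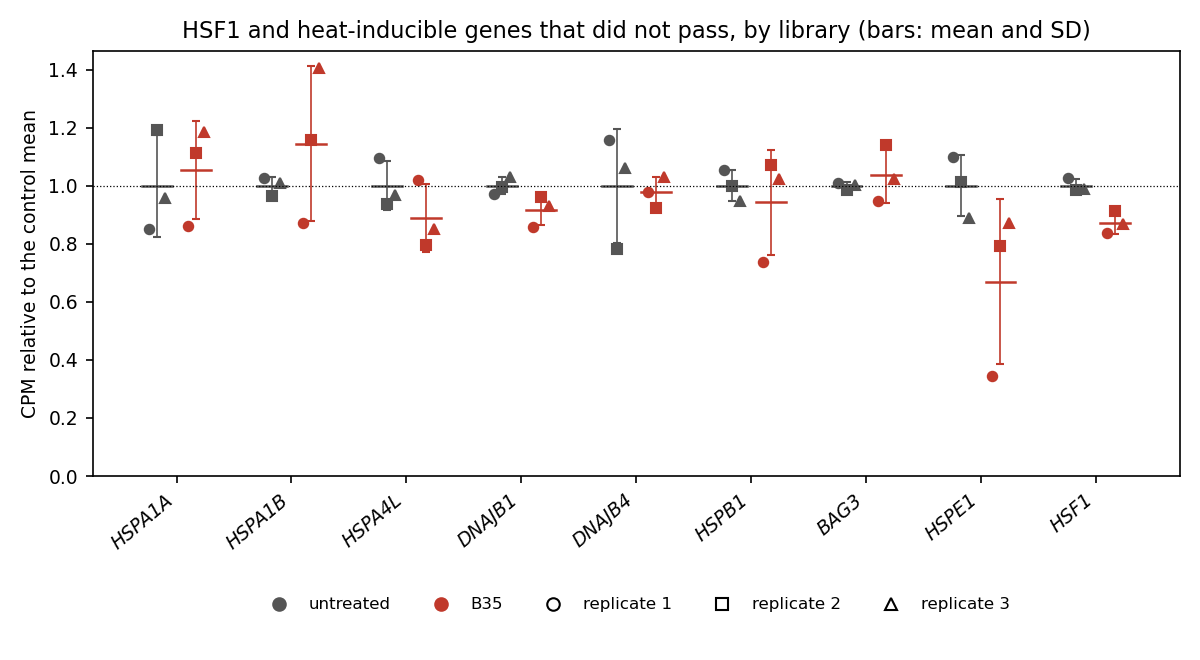
CPM of HSF1 and of the heat-inducible genes that did not pass, each divided by its own control mean, by library (points), with the group mean and SD as bars. HSPA1A and BAG3 have overlapping groups, and HSPE1 and HSPB1 each have a low value in B35 replicate 1.

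HSF1 binds heat shock elements, which are inverted repeats of the unit GAA (TTC on the other strand) with 2 bases between units. Promoter windows from RefSeq (GRCh38.p14, 250 bases before to 50 after a gene's annotated start) were at hand for 69 of the 79 symbols and were searched for 3 alternating units. The 3 windows below are shown because they belong to genes that fell: HSPA8 and DNAJA1 hold a 3-unit match, in capitals, and HSPB8, the gene with the largest fall, holds 2-unit matches only, also in capitals. HSPA8 is chr11:123062087-123062386 on the minus strand, DNAJA1 is chr9:33025023-33025322 on the plus strand and HSPB8 is chr12:119178681-119178980 on the plus strand, all written 5′ to 3′.
HSPA8: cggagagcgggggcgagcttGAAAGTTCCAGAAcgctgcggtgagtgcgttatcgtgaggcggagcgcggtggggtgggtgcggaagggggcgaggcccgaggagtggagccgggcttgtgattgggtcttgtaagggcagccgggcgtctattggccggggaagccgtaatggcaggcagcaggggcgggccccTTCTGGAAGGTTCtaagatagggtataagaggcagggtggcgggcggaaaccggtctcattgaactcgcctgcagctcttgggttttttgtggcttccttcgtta
DNAJA1: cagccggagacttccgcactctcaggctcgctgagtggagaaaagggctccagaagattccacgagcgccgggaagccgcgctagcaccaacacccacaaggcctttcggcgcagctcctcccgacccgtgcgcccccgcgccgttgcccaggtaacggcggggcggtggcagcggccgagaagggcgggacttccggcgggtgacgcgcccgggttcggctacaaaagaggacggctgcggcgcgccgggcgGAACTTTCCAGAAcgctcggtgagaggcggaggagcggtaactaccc
HSPB8: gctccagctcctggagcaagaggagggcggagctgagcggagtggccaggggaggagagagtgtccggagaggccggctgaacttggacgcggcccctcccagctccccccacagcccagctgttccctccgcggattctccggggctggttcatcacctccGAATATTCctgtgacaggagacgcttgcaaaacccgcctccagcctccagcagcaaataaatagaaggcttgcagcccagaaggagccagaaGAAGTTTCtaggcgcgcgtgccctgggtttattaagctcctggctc
HSPA8 had 2 matches, GAAAGTTCCAGAA beginning 230 bases before the start and TTCTGGAAGGTTC beginning 55 before it. In DNAJA1 the match GAACTTTCCAGAA began at base 4 of the transcript. The remaining matches belonged to DNAJB6, with GAACCTTCGCGAA beginning 131 bases before the start, and HSPA6, with TTCGCGAAAGTTC beginning 74 before it. HSPB8 had GAATATTC beginning 88 bases before the start and GAAGTTTC at base 5 of the transcript.

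In all, 4 of the 69 chaperone windows (5.80%, 95% Wilson interval 2.28 to 14.0%) held the 3-unit element, against 172 of all 35116 windows (0.490%). With 2 units (GAANNTTC or TTCNNGAA, each of which reads the same on both strands, and which also counts every 3-unit match), the shares were 18 of 69 (26.1%) and 13.5%. Among genes that fell, 2 of 21 windows held 3 units and 8 of 21 held 2. Among tested genes that did not pass, the counts were 1 of 40 and 6 of 40, and HSPA1A and HSPA1B were among the latter, with GAATATTC beginning 106 and 105 bases before their starts. The HSPA1A match also lies in the window of HSPA1L, which overlaps that of HSPA1A, so 1 site counts for both genes. The Wilson intervals were 2.65 to 28.9% against 0.443 to 12.9% for 3 units and 20.8 to 59.1% against 7.06 to 29.1% for 2 units. Such intervals treat windows as independent, which overlapping windows and those of near-identical genes are not. The difference between genes that fell and genes that did not pass was not tested. A match describes letters in a window and not binding by HSF1.

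J-proteins bring substrates to HSP70 and trigger its ATPase. Class A members, which share the domain layout of bacterial DnaJ, had 3 of 4 genes lower, against 6.59% of all genes. Their median log2 fold change was −0.39. DNAJA1, the main cytosolic one, had 211, 199 and 209 CPM in control and 150, 156 and 163 in B35 libraries (1.32-fold lower, −0.40 ± 0.085, adjusted p = 0.0109). DNAJA3, its mitochondrial relative, went from 132, 142 and 138 to 98.2, 112 and 106 CPM (1.31-fold lower, adjusted p = 0.017). DNAJA4 went from 26.6, 27.3 and 26.2 to 16.1, 18.1 and 20.8 CPM (1.45-fold lower, adjusted p = 0.0143). In all 3, every B35 library lay below every control library, an order seen in 17.5% of all genes. DNAJA2, the remaining one, had 83.1, 86.1 and 88.4 CPM in control and 78.2, 87.0 and 70.4 in B35 libraries, with an adjusted p of 0.42. Leaving out control replicate 3 took the adjusted p to 0.076 for DNAJA1, 0.0916 for DNAJA3 and 0.0604 for DNAJA4. The DNAJA1 and DNAJA4 calls were also lost without control replicate 1 (0.0506 and 0.0525), and dropping control replicate 2 ended those of DNAJA3 and DNAJA4 (0.0737 and 0.0519).

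No class B J-protein passed, of 7 tested and 10 listed, where 15.4% of all genes passed in either direction. With 7 genes tested, none passing lies near that share. DNAJB6, known for holding back polyglutamine aggregation, had the highest CPM, though per length DNAJB1 was higher (30.7 against 12.2 FPKM in control). DNAJB6 had 190, 184 and 179 CPM in control and 144, 162 and 158 in B35 libraries. Its groups did not overlap (−0.25 ± 0.088, adjusted p = 0.0757), and it passed once offsets for GC content and exon length were included (0.0094), as did DNAJB12 (0.0427 there, 0.22 otherwise). DNAJB6 and DNAJB12 passed as lower there. In the other direction, DNAJB2 (log2 fold change 0.23 with all libraries) passed as higher without B35 replicate 1 (adjusted p = 0.0428).

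Class C J-proteins share only the J-domain and serve varied tasks. Of the 23 tested, 20 did not pass, 2 fell and 1 rose, against 6.59% of all genes lower and 8.82% higher. The class thus lay near the shares over all genes. DNAJC6 (auxilin), which recruits HSC70 to strip clathrin from vesicles, had 31.7, 26.9 and 28.6 CPM in control and 21.2, 21.3 and 17.9 in B35 libraries (1.45-fold lower, adjusted p = 0.0142). DNAJC15, a J-protein of the mitochondrial inner membrane, went from 64.4, 57.1 and 67.6 to 52.6, 48.4 and 46.8 CPM (1.28-fold lower, adjusted p = 0.0382). DNAJC22 was higher in every B35 library, with 15.1, 17.8 and 17 CPM in control and 20.4, 22.5 and 22.5 in B35 libraries (1.31-fold, adjusted p = 0.0488). The DNAJC22 call was lost with DESeq2's Wald test (adjusted p = 0.0544), with DESeq2's size factors (0.0534), with no filter on low counts (0.077), without any 1 control library (0.177, 0.0845 and 0.152 for replicates 1 to 3) and without B35 replicate 2 or 3 (0.127 and 0.11). That of DNAJC6 was lost without control replicate 1 or 3 (0.0699 and 0.0614). That of DNAJC15 was lost without control replicate 1 or 3 (0.121 and 0.188) and without B35 replicate 2 or 3 (0.106 and 0.105). It was also lost with upper-quartile scaling (0.0565). DNAJC21, which works in ribosome assembly, had the highest CPM of the class, though per length DNAJC8 was higher (41.3 against 23.4 FPKM in control). DNAJC21 had 255, 196 and 222 CPM in control and 215, 193 and 194 in B35 libraries, with an adjusted p of 0.353.

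All 8 subunits of the TRiC/CCT ring fell, against 6.59% of all genes. Each had a control mean of at least 100 CPM, a level at which 17.6% of genes fell. In each of them the 3 B35 libraries lay below the 3 control libraries, an order seen in 17.5% of all genes. Each ring holds 1 copy of each subunit. CCT5 had 927, 881 and 883 CPM in control and 577, 587 and 568 in B35 libraries, a fall of 1.55-fold (−0.64 ± 0.080, adjusted p = 0.000884). CCT6A went from 421, 395 and 394 to 254, 280 and 265 CPM (1.51-fold lower, adjusted p = 0.0017). CCT7 went from 412, 405 and 398 to 245, 299 and 295 CPM (1.45-fold lower, adjusted p = 0.00532). These 3 and CCT3, with 514, 498 and 507 against 355, 382 and 359 CPM (1.39-fold lower, adjusted p = 0.00429), passed without any 1 library.

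The other ring subunits fell less in size. CCT4 (284, 273 and 276 against 198, 225 and 208 CPM) fell 1.32-fold with an adjusted p of 0.0123. CCT2 (247, 213 and 229 against 167, 187 and 171 CPM) also fell 1.32-fold, with an adjusted p of 0.018. CCT8 (314, 275 and 300 against 243, 244 and 219 CPM) fell 1.26-fold with an adjusted p of 0.0339. TCP1, the founding subunit of the family (218, 215 and 217 against 177, 183 and 177 CPM), had the smallest fall, 1.21-fold (−0.27 ± 0.081, adjusted p = 0.0448). The number of ring subunits that passed was 4 when control replicate 1 or 3 was dropped and 6 when control replicate 2 or either of B35 replicates 2 and 3 was dropped. The lost ones were CCT4, CCT2, CCT8 and TCP1 (adjusted p = 0.0707, 0.0873, 0.149 and 0.183 without control replicate 3, and 0.055, 0.0854, 0.131 and 0.129 without control replicate 1). CCT8 and TCP1 were the 2 lost without control replicate 2 (0.0556 and 0.125), B35 replicate 2 (0.0603 and 0.0833) or B35 replicate 3 (0.0939 and 0.0911). TCP1 also missed the threshold with upper-quartile scaling (0.0654) and with no filter on low counts (0.0814). Some exons of CCT5, CCT4 and TCP1 overlap those of neighbouring genes.

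In the deposited FPKM, which scale by the joined length of all annotated exons of a gene, the ring subunits spanned a narrower range after B35. That length can differ from the length of a transcript, so ranks between genes depend on the annotation. In control libraries the lowest was TCP1 at 43.3 to 44.0 FPKM and the highest CCT5 at 150 to 158 FPKM, a ratio of 3.44 to 3.59. In B35 libraries TCP1 lay at 35.2 to 36.9 FPKM and CCT5 at 95.2 to 99.7 FPKM, a ratio of 2.70 to 2.75. The ratio was lower in each B35 library than in each control library; the subunits at either end were picked by their values, so no test was made. CCT6B, a testis form of CCT6 that is not part of the usual ring, had at most 1.05 CPM in any library and did not pass (adjusted p = 0.301).

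**Figure D3:**
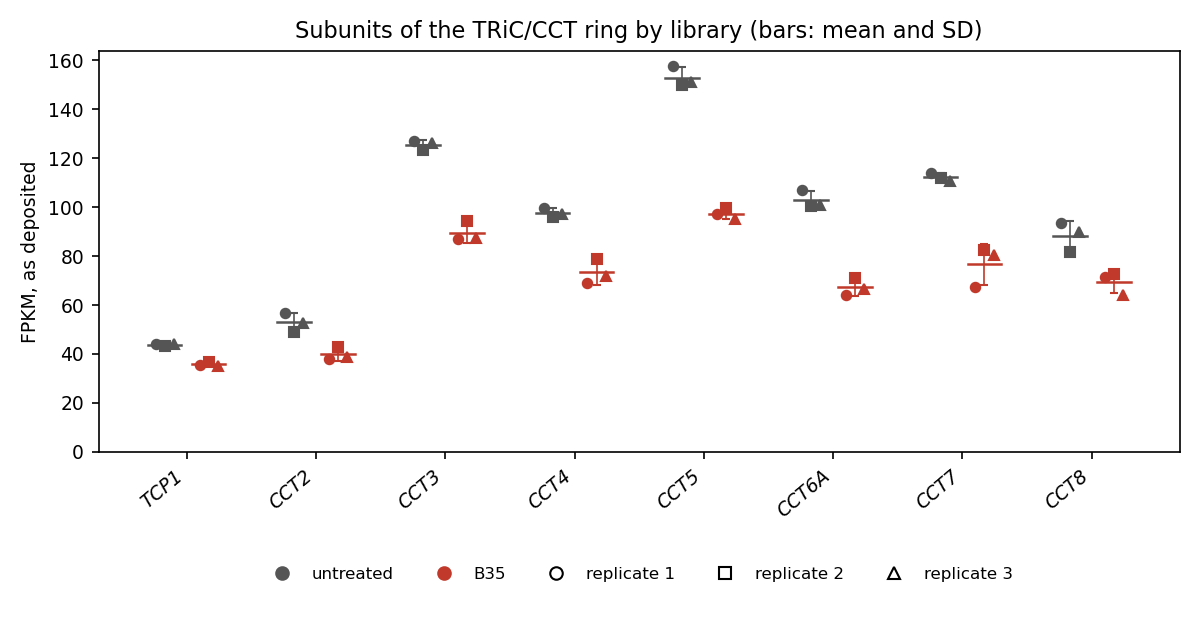
Deposited FPKM of the ring subunits of TRiC/CCT by library (points), with the group mean and SD as bars. For each subunit the B35 points lie below the control points, from TCP1 at the low end to CCT5, which averaged 153 FPKM in control and 97.4 FPKM in B35 libraries.

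The mitochondrial matrix has its own folding line, and 4 of the 8 tested mitochondrial members fell (HSPA9, HSPD1, DNAJA3 and DNAJC15). Over all genes 6.59% fell, and 17.6% of those with a control mean of at least 100 CPM. The median log2 fold change of the mitochondrial members was −0.37. The count of 4 became 2 with control replicate 1 left out and 1 (HSPD1) with control replicate 3 left out. HSPD1, which encodes HSP60 (hg38 chromosome 2, 197486581 to 197516737, minus strand), had 793, 688 and 741 CPM in control and 548, 540 and 469 in B35 libraries. It fell 1.43-fold (−0.51 ± 0.096, adjusted p = 0.00603) and passed without any 1 library. HSPE1, which encodes the lid HSP10, lies head to head with it (197499994 to 197503457, plus strand), and some exon positions of the 2 genes coincide. Exon positions of HSPE1 are also shared with HSPE1-MOB4. Reads there cannot be assigned with certainty, which bears on the HSPE1 level and on its ratio to HSPD1. HSPE1 had 57.7, 53.2 and 46.7 CPM in control and 18.0, 41.7 and 45.7 in B35 libraries. All B35 libraries were lower, but replicate 1 lay far below the others, the standard error was large (−0.58 ± 0.26) and the adjusted p was 0.16. Without that library it was 0.0908, and with no filter on low counts it was 8.96e-05. The log2 ratio of HSPD1 to HSPE1 was 3.82 ± 0.152 in control and 3.99 ± 0.824 in B35 libraries (SD, n = 3; exact two-sided permutation test, p = 0.9). Counts of named pseudogenes made up 5.77% of the sum of HSPE1 and its pseudogenes, and 1.35% of the same sum for HSPD1. Adding the pseudogene counts changed no call.

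Of the small heat shock proteins, 4 of 8 were tested and 2 fell, against 6.59% of all genes tested. HSPB8 (ENSG00000152137, hg38 chromosome 12, 119178642 to 119221131, plus strand), which works with BAG3 to send misfolded proteins to autophagy, had 165, 154 and 153 CPM in control and 68.2, 78.5 and 70.4 in B35 libraries. Its mean went from 157 ± 6.62 to 72.4 ± 5.43 CPM (SD, n = 3), a fall of 2.17-fold (−1.12 ± 0.094, adjusted p = 8.58e-05). It had the largest fall and the smallest adjusted p among the chaperone genes, and it was the single one that passed a test against a 1.5-fold change. HSPB11, named for its fold but known as a part of the intraflagellar transport machinery of cilia (IFT25), had 56.9, 54.3 and 59.2 CPM in control and 38.9, 40.6 and 40.8 in B35 libraries (1.42-fold lower, adjusted p = 0.00532). Both calls held without any 1 library. HSPB1 (HSP27), the most abundant of the family per length (134 FPKM in control), had 232, 220 and 208 CPM in control and 162, 235 and 225 in B35 libraries. The groups overlapped, with B35 replicate 1 below the rest (−0.08 ± 0.13, adjusted p = 0.715), and without that library the log2 fold change was 0.06.

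**Figure D4:**
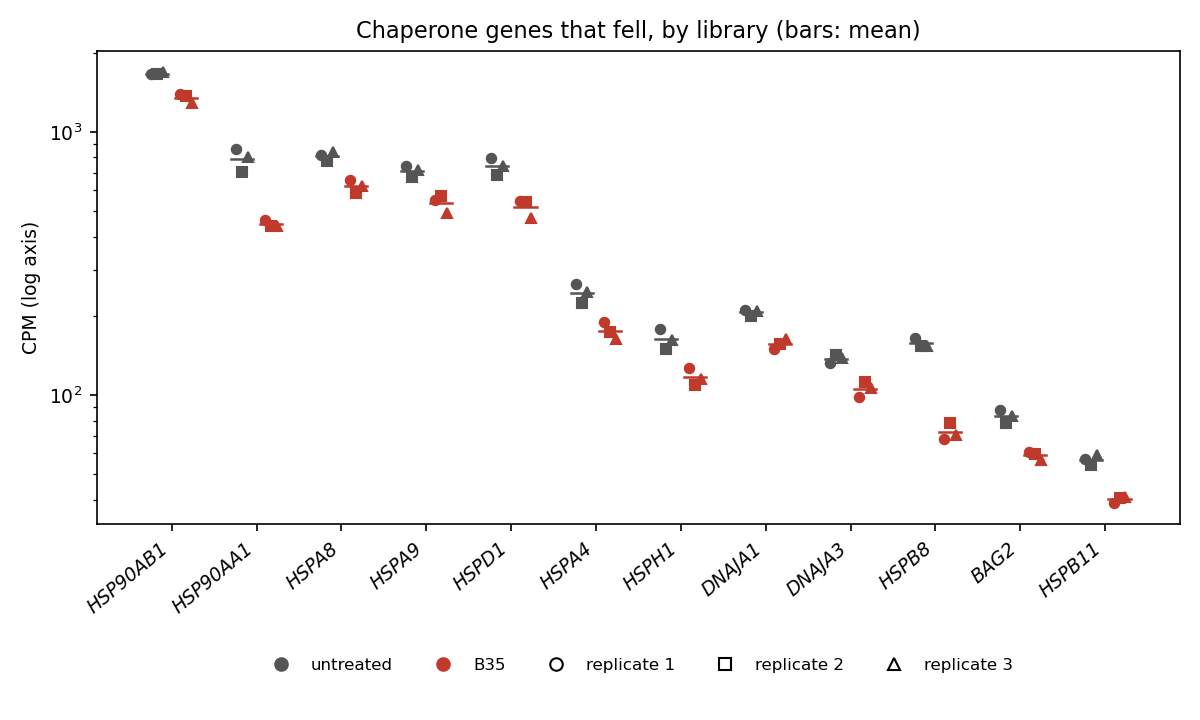
CPM on a log axis of 12 chaperone genes that fell, by library (points, shaped by replicate number), with each group's mean as a bar. The 3 B35 points lie below the 3 control points for each gene shown, and the gap is widest for HSPB8 (157 against 72.4 CPM) and HSP90AA1 (790 against 448 CPM).

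BAG proteins release HSP70's substrate and link it to degradation or other machinery. BAG2, which restrains the ubiquitin ligase CHIP on HSP70 clients, had 87.9, 78.6 and 83.1 CPM in control and 60.6, 59.9 and 56.7 in B35 libraries (1.41-fold lower, −0.49 ± 0.091, adjusted p = 0.00562). The call held without any 1 library, although some exon positions are shared with RAB23 and ZNF451-AS1. The other 5 BAG genes did not pass, so 1 of the 6 fell, against 6.59% of all genes. BAG3, the partner of HSPB8, had 74.9, 73.1 and 74.2 CPM in control and 70.1, 84.4 and 75.7 in B35 libraries (0.05 ± 0.097, adjusted p = 0.77). The log2 ratio of HSPB8 to BAG3 went from 1.09 ± 0.0479 to −0.0825 ± 0.0367 (SD, n = 3), with no overlap between groups (exact two-sided permutation test, p = 0.1, the smallest possible). BAG1, which had the highest CPM of these genes but per length lay beside BAG6 (41.8 and 44.3 FPKM in control), had 291, 306 and 294 CPM in control and 284, 365 and 323 in B35 libraries, with an adjusted p of 0.454.

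The 9 genes with too few counts for a test were HSPA6, HSPB2, HSPB3, HSPB6, HSPB9, DNAJB7, DNAJB8, DNAJB13 and DNAJC28. DNAJB8 and HSPB2 had 0 counts in all 6 libraries, and the others had at most 16 in any library.

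Genes that work with these chaperones but lie outside the naming rule were read from a list of 41 (HSP90 and HSP70 co-chaperones, prefoldin, phosducin-like proteins, mitochondrial proteases and exchange factors, other heat shock factors). Of 39 tested, 12 fell and none rose, against 6.59% of all genes lower and 8.82% higher, with a median log2 fold change of −0.19. CHORDC1, an HSP90 co-chaperone, had 107, 84.4 and 89.8 CPM in control and 47.0, 38.7 and 43.0 in B35 libraries (2.19-fold lower, −1.13 ± 0.12, adjusted p = 0.000326). STIP1 (HOP), which hands clients from HSP70 to HSP90, went from 202, 195 and 189 to 114, 128 and 128 CPM (1.58-fold lower, adjusted p = 0.0013). PDCL3, a phosducin-like partner of TRiC, went from 26.0, 23.5 and 24.9 to 13.3, 16.3 and 16.1 CPM (1.62-fold lower, adjusted p = 0.00445). In all 3, every B35 library lay below every control library, an order seen in 17.5% of all genes.

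The other falls on that list, named after their values were seen, were AHSA1, PTGES3 (p23), FKBP4 and PPID among HSP90 partners, VBP1 of prefoldin, the mitochondrial exchange factors GRPEL1 and GRPEL2, TOMM34 and CLPB. They lay between 1.26-fold (CLPB, adjusted p = 0.0366) and 1.51-fold (AHSA1, adjusted p = 0.00566). CHORDC1, STIP1, PDCL3 and AHSA1 passed without any 1 library. The list's count was 4 with control replicate 1 or 3 left out, 7 without control replicate 2, 12 without B35 replicate 1, 8 without B35 replicate 2 and 6 without B35 replicate 3. The kinase-specific co-chaperone CDC37 and the mitochondrial HSP90 gene TRAP1 did not pass. Of the 6 endoplasmic reticulum genes left out by the rule, 2 fell and none rose, against 6.59% of all genes lower. The falls were HSPA5 (adjusted p = 0.0164) and DNAJB11 (adjusted p = 0.043), and the median log2 fold change of the 6 was −0.081. HSPA5 missed the threshold without control replicate 2 or 3 (0.0724 and 0.0879), and DNAJB11 without any 1 control library (0.0797, 0.159 and 0.105 for replicates 1 to 3) or B35 replicate 2 (0.0907). DNAJB11 also missed it with upper-quartile scaling (0.0528) and with GC and length offsets (0.130).

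**Figure D5:**
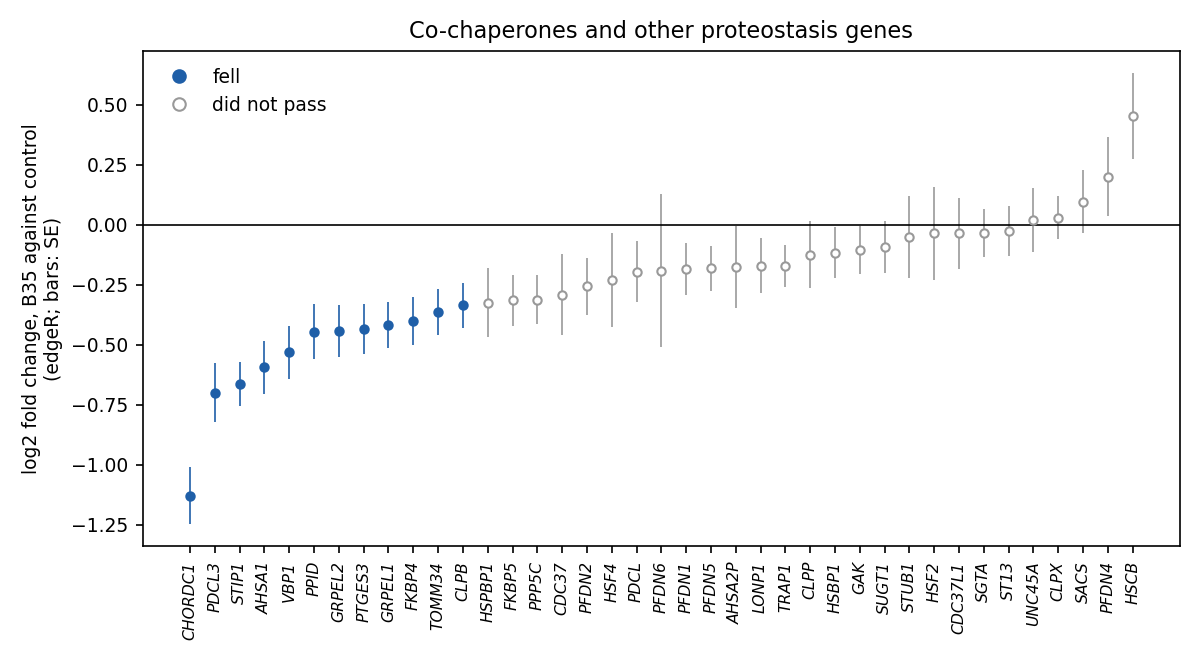
Log2 fold change (B35 against control, edgeR estimate, with its standard error as a bar) of the tested co-chaperones and other proteostasis genes. Filled points are the 12 genes that fell, led by CHORDC1 at −1.13, and open points did not pass.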

How the data were processed

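RNA was extracted with TRIzol and, per the labels' protocols, made into libraries with an NEBNext Ultra kit. Reads were aligned with HISAT2 2.0.5 to hg38 and counted per gene with featureCounts 1.5.0-p3, per the submitters' processing notes; no source used here gives the strand setting. Each deposited file holds the raw read counts of 1 library, which were the base of all tests, and FPKM values made by the authors, which were used for levels between genes; CPM was used within a gene and to choose the highest member of a family. The length in the FPKM, called per length here, is that of all annotated exons of a gene joined, not that of a transcript. Totals ran from 17141478 to 18530670 counts.

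Counts were joined to GENCODE 29 by gene identifier (58735 of 58735 matched; 2 further symbol matches, HSPA7 and DNAJB3, are not protein coding). Genes passing filterByExpr (minimum count 10, minimum total 15) were fitted with edgeR 4.0.16 (R 4.3.3; TMM scaling, glmQLFit and glmQLFTest, B35 against control), with Benjamini-Hochberg adjustment over all genes tested and a threshold of 0.05. The procedure was tested on simulated data. Alternatives were DESeq2 1.42.0, limma-voom 3.58.1, other scalings and filters, a robust fit, a test against a 1.5-fold change, GC and length offsets, a replicate block, added pseudogene counts and leaving out each library. Single ratios used exact two-sided permutation tests (scipy 1.17.1).

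The members, the gene lists and the rule for named genes were chosen with earlier results of these data known. The rule takes 11 set genes (HSF1, HSPA1A, HSPA1B, HSPA8, HSP90AA1, HSP90AB1, HSPB1, HSPD1, HSPE1, TCP1, DNAJB1), every member that passed, the member of highest CPM in each family, up to 3 other proteostasis genes per direction, KDM1A, and paralogues of called genes as values.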

Additional observations from a re-analysis of the deposited data

How the results depend on the processing

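All 25 chaperone calls kept their direction in every alternative run. Over all genes, 2276 calls became 176 in the test against a 1.5-fold change, 3867 with GC and length offsets, and 881 to 3342 when 1 library was left out. For the chaperone genes the count of 25 became 1 (HSPB8) against a 1.5-fold change, 28 with offsets (all 25 kept) and 10 to 27 without 1 library, and their median stayed between −0.20 and −0.14 on leaving out 1 library. The 12 calls on the list of other proteostasis genes became 1 against a 1.5-fold change, 18 with offsets and 4 to 12 without 1 library. The causes were not tested; leaving out a library also leaves fewer samples.

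The summed HSPA1A and HSPA1B difference was −0.0030 without B35 replicate 3 and ranged from there to 0.26 when 1 library was left out. HSPA1A alone ranged from −0.032 (without control replicate 1; −0.02 without B35 replicate 3) to 0.22, and HSPB1 from −0.19 to 0.063 (without B35 replicate 1). The share of windows with a heat shock element was 26.1% with 2 units in place of 3. Across the named genes, 537 other recalculated values kept their side of the threshold, 77 fell short of it and 3 came to pass it.

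Whether replicate numbers pair the samples is not settled here. Deviations of same-numbered libraries correlated at 0.163, 0.0162 and −0.063, and those of differently numbered libraries at −0.222 to 0.249. With a replicate block, 26 chaperone genes passed: HSP90AB1 and TCP1 were lost (adjusted p = 0.0639 and 0.0673) and HSPE1, DNAJC11 and DNAJC2 were gained (0.0338, 0.0383 and 0.015). With it 2855 genes passed in all and 14 on the other list.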
